A study of Drosophila melanogaster with 6 samples.

Results

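Mitochondrial protein import, folding and proteolysis was followed through 21 genes, out of 10845 genes with a probe set naming 1 gene, in Drosophila melanogaster Kc-167 cells depleted of Enigma. The genes were those whose symbol begins with Tim or Tom and a digit, together with Hsp60A, Hsc70-5, Trap1, Lon, ClpP, ClpX, Roe1, Spg7, CG11267 and CG9920. The rule also allowed l(2)tid, which is not analysed here, and each of the 21 genes had 1 probe set. Kc-167 is an embryonic fly line with features of haemocytes, and the labels name no transgene or allele for either group. In the Enigma RNAi group (3 arrays), cells were kept for 1 hour with 20 µg of double-stranded RNA against Enigma in serum-free medium, given serum and harvested on day 5. The control RNAi group (3 arrays) was treated in the same way with double-stranded RNA against beta-lactamase, a bacterial gene absent from flies. Enigma, gene Egm, is a mitochondrial relative of the acyl-CoA dehydrogenases of fatty acid oxidation, and the comparison asked which transcripts differ when it is depleted.

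Most mitochondrial proteins are made in the cytosol and enter the organelle through the TOM complex of the outer membrane. Small Tim chaperones carry hydrophobic precursors across the intermembrane space, and the Tim17 and Tim23 channel with its Hsp70 motor pulls matrix proteins across the inner membrane. Inside, chaperonins fold the newcomers and ATP-driven proteases remove damaged or unassembled chains, and in several animals, flies among them, mitochondrial stress can raise the transcripts of these chaperones and proteases.

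All values are the deposited GCRMA values in log2 units, and each difference is the Enigma RNAi mean minus the control RNAi mean. Testing required a value above 4 on 3 or more of the 6 arrays, which held for 15 of the 21 genes and for 6975 probe sets in all. Arrays carrying the same replicate number are called a pair, since they deviated together from their group means. The labels do not say whether replicates were separate cultures, and the p-values rest on the spread among these arrays alone, which may be technical.

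The Enigma transcript was lower on the Enigma RNAi arrays, at 3.24, 3.51 and 4.21, against 6.00, 6.41 and 6.71 on control arrays. Its difference of -2.72 had a 95% confidence interval of -3.41 to -2.04 and did not pass the threshold, an adjusted p of less than 0.05 across the tested probe sets, in the linear model without a block (limma, adjusted p = 0.283), while it passed with the replicate number as a block (limma, adjusted p = 0.000118). A two-sided exact permutation test gave p = 0.1, and 3 against 3 arrays cannot go lower. The Enigma values of 3.24 and 3.51 lie under 4, the value used in the filter, so the size of the difference is uncertain. With a floor at 4 it was -2.31, which did not pass without a block (limma, adjusted p = 0.0655). Of 8 plasmatocyte markers, 5 were above the filter, among them Hml and Col4a1, and NimC1, eater and crq were below it, while 0 of 3 fat body, 0 of 2 muscle, 0 of 2 glia and 0 of 3 lamellocyte markers were above it, and 1 of 3 crystal cell, 2 of 3 neuron and 2 of 3 germline markers were. The summed log2 values of the 8 plasmatocyte markers spanned 49.52 to 55.18 on Enigma RNAi arrays and 48.30 to 56.28 on control arrays. In bulk RNA, fewer cells of a kind and less RNA per cell cannot be told apart. The 3′ minus 5′ signal of eIF4A, a sign of RNA quality, was 1.71 ± 0.22 on Enigma RNAi arrays and 1.38 ± 0.14 on control arrays (SD, n = 3 each). It was 0.82 ± 0.18 against 0.65 ± 0.13 for actin, and 2.06 ± 0.02 against 1.98 ± 0.12 for GAPDH. The part of RNA quality in the values below was not tested.

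No import, chaperone or protease transcript passed the threshold after Enigma RNAi. The Benjamini-Hochberg adjusted p of limma was 0.999 for each of the 15 genes, and the smallest unadjusted one was 0.184, that of Spg7. Across all tested probe sets 0% passed in this fit, and at an unadjusted p under 0.05 there were 2.57% lower and 1.69% higher, against 0 of the 15 genes in either direction. With the replicate block 0.631% of probe sets passed, 44 in number, and again 0 of the 15 genes. The groups overlapped for each of the 15 genes, while over all tested probe sets they did not overlap for 6.16% with lower and 2.81% with higher values after Enigma RNAi.

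The differences of the 15 genes were small in both directions, running from -0.37 for Spg7 to 0.19 for Tom20. Their median was -0.06, beside -0.03 over all tested probe sets, and 9 had the lower and 6 the higher mean after Enigma RNAi, where 58.3% of all tested probe sets had the lower mean. The median changed sign without some arrays, at 0.02 without Enigma RNAi replicate 2 and 0.04 without control RNAi replicate 1. The 95% intervals of all 15 included 0 in the fit without a block and lay within a 2-fold change either way, with a median half-width of 0.40. Over all tested probe sets, 90.6% had intervals within a 2-fold change. Among the 15 genes the lowest bound was -0.97, that of Spg7, and the highest was 0.85, that of Hsc70-5. These bounds correspond to 1.96-fold lower and 1.80-fold higher, and a p that misses the threshold does not show that levels were equal.

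**Figure D1:**
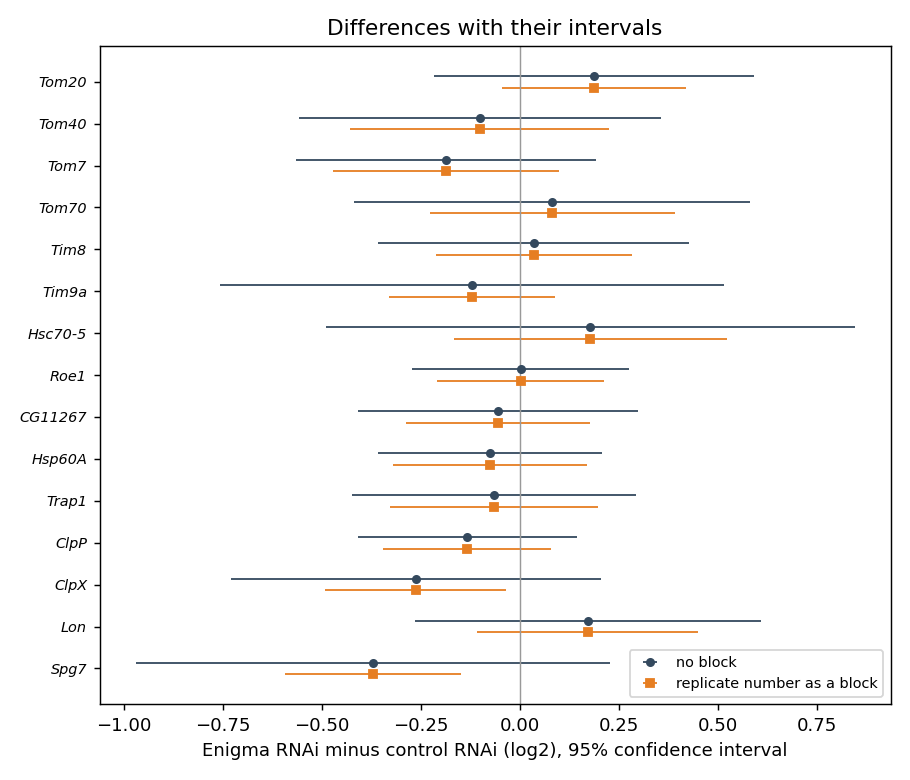
Difference between Enigma RNAi and control RNAi for each of the 15 genes, in log2 units on the horizontal axis, with 95% confidence intervals from limma without a block (circles) and with the replicate number as a block (squares). The intervals without a block all include 0, and with the block those of ClpX and Spg7 lie below 0.

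At the outer membrane, the differences of receptors, pore and small subunit ran in both directions. Tom20, a receptor that binds the presequences of arriving proteins, had values of 10.97, 10.54 and 10.87 on Enigma RNAi arrays 1 to 3, against 10.87, 10.45 and 10.50 on control arrays 1 to 3. It was the 1 gene of the 15 that was higher in all 3 pairs, where 15.0% of all probe sets were, with a difference of 0.19 ± 0.17 (SE) and an interval of -0.22 to 0.59. The difference was 0.10 without Enigma RNAi array 1 and 0.32 without control RNAi array 1. Tom70, the receptor for precursors with internal signals, had 7.45, 7.29 and 7.24 after Enigma RNAi, against 7.67, 6.85 and 7.22 in controls. Control array 2 was the lowest of the 6 for Tom70, and the difference of 0.08 became -0.11 without it. Tom40 forms the pore of the complex and measured 7.64, 8.29 and 8.27 on Enigma RNAi arrays, against 8.15, 8.24 and 8.11 on control arrays. Its 6 values were within a narrow band apart from Enigma RNAi array 1, and the difference of -0.10 was 0.11 without that array. Tom7, a small subunit that tunes the assembly of the complex, had 5.75, 5.66 and 5.59 after Enigma RNAi, against 5.75, 6.17 and 5.64 in controls. The high value of control array 2 made most of its difference of -0.19 ± 0.16 (SE), which was -0.03 without that array.

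**Figure D2:**
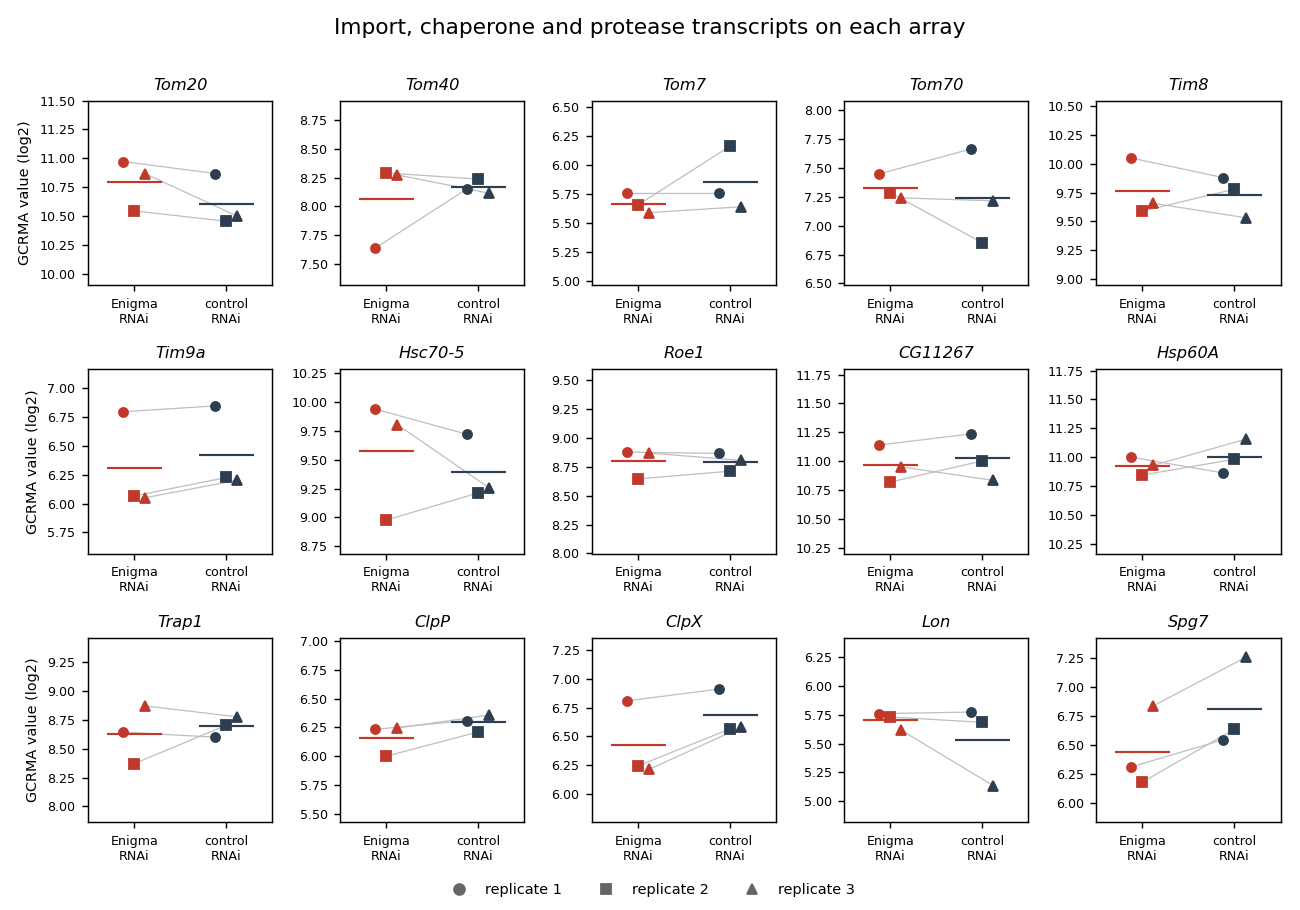
GCRMA values (log2, vertical axis, the same span of units in each panel) of the 15 tested genes on each Enigma RNAi array (left in each panel) and control array (right), with marker shape for the replicate number, grey lines joining arrays of 1 number and bars for the group means. The groups overlap in every panel, and Tim9a and ClpX show both replicate 1 arrays above the others.

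Of the 3 small Tim chaperones with a probe set, Tim8 and Tim9a were tested and Tim13 was below the filter. Tim9a, part of the hexamers that shield hydrophobic precursors, had 6.80, 6.07 and 6.05 on Enigma RNAi arrays, against 6.85, 6.23 and 6.20 on control arrays. Both replicate 1 arrays stood at least 0.57 above the other 4, while within pairs the Enigma RNAi value was lower each time, by 0.05, 0.16 and 0.15. Its difference was -0.12 ± 0.27 (SE), and -0.12 ± 0.09 (SE) with the block (limma, adjusted p = 0.527). Tim8, which in yeast partners Tim13, measured 10.05, 9.59 and 9.66 after Enigma RNAi, against 9.88, 9.78 and 9.53 in controls. Its difference of 0.03 was higher in 2 pairs and lower in the other, with an interval of -0.36 to 0.43.

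The 4 Tim17 paralogues on the array, Tim17a1, Tim17a2, Tim17b1 and Tim17b2, are relatives of the channel subunit Tim17, and all 4 were below the filter, as were Tim13 and CG9920. The values of these 6 genes lay between 1.28 and 3.47 over the 6 arrays, and all 6 had their highest value on Enigma RNAi array 2. That array also had the highest median over the 6991 probe sets below the filter, 3.15, with 2.97 and 3.00 on Enigma RNAi arrays 1 and 3, against 2.96, 3.07 and 3.02 on control arrays 1 to 3. The group differences of the 6 genes ran from 0.01 to 0.03 and were not tested. Values this low give no order between groups, so that nothing can be said here on changes in the Tim17 paralogues, Tim13 or CG9920.

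Among the 15 genes, the 2 placed with the import motor had the widest and the narrowest standard error. Hsc70-5, the mitochondrial Hsp70 that pulls proteins into the matrix and helps fold them, had 9.94, 8.98 and 9.81 on Enigma RNAi arrays, against 9.72, 9.21 and 9.26 on control arrays. The Enigma RNAi group held both the highest and the lowest value, and the pairs differed by 0.22, -0.24 and 0.55. The difference of 0.18 ± 0.28 (SE) ran from -0.0049 without Enigma RNAi array 1 to 0.48 without Enigma RNAi array 2. Roe1, the GrpE-type exchange factor that resets this Hsp70, had 8.88, 8.65 and 8.87 after Enigma RNAi, against 8.87, 8.71 and 8.81 in controls. Its mean was 8.80 ± 0.13 after Enigma RNAi and 8.80 ± 0.08 in controls (SD, n = 3 each), and the interval of its difference was -0.27 to 0.28.

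Among the folding machines of the matrix, the means were slightly lower after Enigma RNAi for all 3 genes tested, each by less than its standard error. Hsp60A, the chaperonin that encloses folding proteins and a common marker of mitochondrial stress, had 11.00, 10.84 and 10.93 on Enigma RNAi arrays, against 10.86, 10.98 and 11.15 on control arrays. Its difference of -0.07 ± 0.12 (SE) had an interval of -0.36 to 0.21, or 0.78-fold to 1.16-fold. CG11267, listed with the synonym Hsp10 and thus the lid of that chaperonin, measured 11.14, 10.82 and 10.95 after Enigma RNAi, against 11.24, 11.00 and 10.83 in controls, a difference of -0.05 with an interval of -0.41 to 0.30. Both replicate 1 arrays were its 2 highest. Trap1, the mitochondrial relative of Hsp90, had 8.64, 8.37 and 8.87 after Enigma RNAi, against 8.60, 8.70 and 8.78 in controls. Enigma RNAi array 2 was its lowest, and the difference of -0.06 was 0.06 without it.

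Of the 4 proteases, 3 had lower means after Enigma RNAi. The differences of Spg7 and ClpX were the 2 largest of the 15 genes with all arrays weighted equally, an order that did not hold with array weights, where Hsc70-5 differed by 0.39 and Spg7 by -0.19. Spg7, a subunit of the m-AAA protease that degrades and processes proteins of the inner membrane, had 6.31, 6.18 and 6.84 on Enigma RNAi arrays, against 6.55, 6.64 and 7.26 on control arrays. Within pairs it was lower each time, by 0.24, 0.46 and 0.42, and the arrays of replicate 3 were the highest of their groups. The difference of -0.37 ± 0.25 (SE), 0.77-fold, had an interval of -0.97 to 0.23 without a block, and of -0.59 to -0.15 with it, where it did not pass over all probe sets (limma, adjusted p = 0.0993). Leaving out single arrays moved it between -0.15, without control RNAi array 3, and -0.57, without Enigma RNAi array 3.

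ClpX, the unfoldase that feeds proteins into the ClpP chamber, had 6.81, 6.25 and 6.22 after Enigma RNAi, against 6.91, 6.57 and 6.58 in controls. It was lower by 0.10, 0.32 and 0.36 in pairs 1 to 3, and its difference was -0.26 with a standard error of 0.20 and of 0.10 with the block, which did not pass (limma, adjusted p = 0.205). It was -0.15 without control RNAi array 1 and -0.46 without Enigma RNAi array 1. ClpP, the proteolytic chamber itself, had 6.23, 6.00 and 6.25 on Enigma RNAi arrays, against 6.31, 6.21 and 6.36 on control arrays, with a difference of -0.13 and an interval of -0.41 to 0.14. The difference was -0.05 without Enigma RNAi array 2. Both partners of the ClpXP protease were lower in all 3 pairs, without passing. Lon, a separate protease of the matrix that also binds mitochondrial DNA, had 5.76, 5.73 and 5.62 after Enigma RNAi, against 5.77, 5.68 and 5.14 in controls. Control array 3 was its low value, and the difference of 0.17 was -0.03 without that array.

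The genes Spg7, ClpX, ClpP, Tim9a and Tom7 were lower in all 3 pairs, Tom7 in pair 1 by only 0.0002. Over all probe sets 25.2% were lower in all 3 pairs, so that 5 of 15 is close to that share. With the block, 2 of the 15, Spg7 and ClpX, had an unadjusted p under 0.05 with lower values and 0 with higher ones (limma), beside 12.4% lower and 6.91% higher over all probe sets, which is again near the background. The 3 pairs did not give the same picture. In pair 2, 11 of the 15 genes were lower on the Enigma RNAi array, beside 54.5% of all tested probe sets. The median of the 15 in that pair was -0.18, beside -0.03 over all tested probe sets. The median of the 15 was -0.01 in pair 1 and 0.06 in pair 3, where it was -0.05 over all tested probe sets. In pair 3, 9 of the 15 genes were higher, while 62.9% of all tested probe sets were lower.

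**Figure D3:**
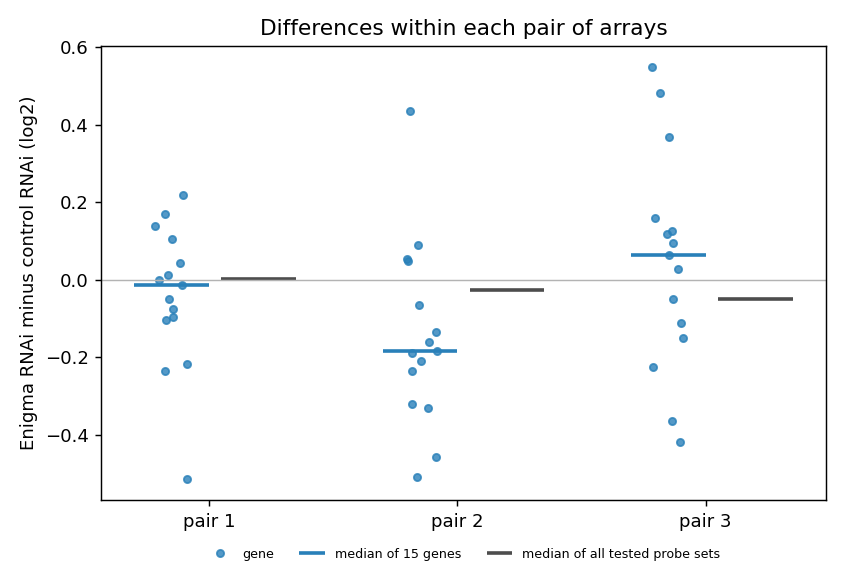
Difference between the Enigma RNAi and the control RNAi array of each pair (log2, vertical axis) for the 15 tested genes (points), with the median of the 15 (blue bars) and of all 6975 tested probe sets (dark bars). The genes lie mostly below 0 in pair 2, with a median of -0.18, and around 0 in pairs 1 and 3.

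Replicate number went with more of the variation of these transcripts than treatment did. A split of each gene's sum of squares over the 6 arrays gave replicate number, with 2 degrees of freedom, a median of 69.4% and treatment, with 1 degree of freedom, a median of 6.34%. Over all tested probe sets the medians were 65.4% and 11.7%, so that the large share of the replicates was not a feature of these genes alone. Tim9a stood at 96.1% for replicate number, while Hsp60A had 30.7% and left 56.2% to neither source. ClpP had 35.2% for treatment, Spg7 27.5% and ClpX 25.7%.

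Both replicate 1 arrays were above the other 4 for 7 of the 15 genes, Tom20, Tom70, Tim8, Tim9a, CG11267, ClpX and Lon, and below them for 0. The margin was only 0.0017 for Tom20 and 0.028 for Lon. Over all tested probe sets the shares were 17.7% above and 22.2% below. Of 51 respiratory complex subunits, 29 had both replicate 1 arrays above the other 4 and 4 had them below. Among 64 mitochondrial ribosomal proteins, 12 had them above and 4 below. Among 15 other tested genes of import, folding and proteolysis, 2 had them above and 2 below. The mean of the replicate 1 arrays exceeded that of the others by 0.68 for Tim9a and 0.46 for ClpX. For Tom40 it was 0.33 lower, through Enigma RNAi array 1 at 7.64. Control array 1 of Tom40, at 8.15, was above control array 3, at 8.11. For Spg7 it was 0.30 lower, but there replicate 3 had the highest mean and replicate 2 the lowest. Hsc70-5 was 0.52 higher on the replicate 1 arrays, although Enigma RNAi array 3 came above the control of replicate 1. All 5 plasmatocyte markers above the filter were also higher on both replicate 1 arrays than on the other 4, Col4a1 by 2.11 and Hml by 0.67 on average, and their part in this pattern was not tested. What set the replicates apart is not given in the labels, and the contrast was looked at with earlier results of these data known.

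**Figure D4:**
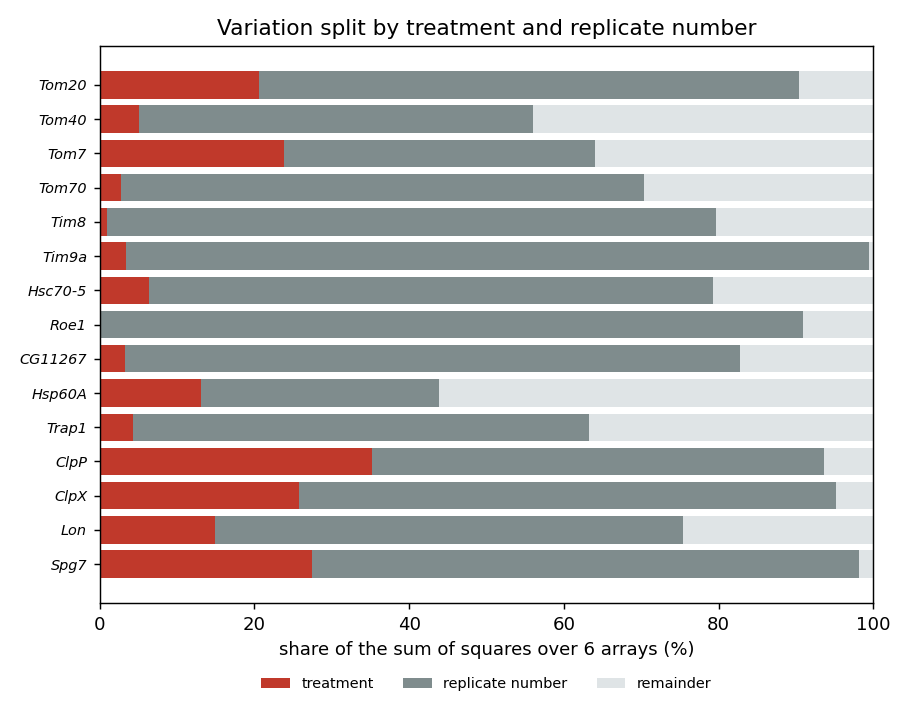
Share of each gene's sum of squares over the 6 arrays (%, horizontal axis) that goes with treatment, with replicate number and with neither, for the 15 tested genes. Replicate number takes 96.1% for Tim9a, and the largest share for treatment is that of ClpP at 35.2%.

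Other genes of the same machinery did not pass either. Of 22 such genes on the array 15 were tested, 0 passed without and 0 with the block, and their median difference was -0.03, with 6 higher and 9 lower means. The groups did not overlap for 2 of them with higher and 1 with lower values after Enigma RNAi, beside 2.81% and 6.16% over all probe sets. The largest difference was that of CG7394, for which the tables used here give no role, with 8.60, 8.74 and 8.46 on Enigma RNAi arrays, against 8.36, 8.36 and 8.27 on control arrays. Its groups did not overlap, and the difference of 0.27 ± 0.11 (SE) had an interval of 0.0021 to 0.54. The unadjusted p was 0.0487 (limma), the 1 of these 15 under 0.05, beside 1.69% higher over all probe sets. CG7394 did not pass (limma, adjusted p = 0.999, and 0.177 with the block). Pink1, the kinase that marks damaged mitochondria for removal, differed by -0.19, with Enigma RNAi lower in 2 of 3 pairs. Afg3l2, whose human counterpart joins that of Spg7 in the m-AAA protease, had 10.60, 10.37 and 10.51 after Enigma RNAi, against 10.41, 10.40 and 10.10 in controls, a difference of 0.19 with an interval of -0.12 to 0.50. Spg7 thus had a lower mean and Afg3l2 a higher one, and neither passed. The other genes without overlap were Opa1, the fusion protein of the inner membrane, at 0.17, and OXA1L, an insertase of that membrane, at -0.17, which were picked after their values were seen and did not pass.

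Related lists of mitochondrial and heat shock genes were set beside the 15 genes. The median difference was -0.08 over 64 mitochondrial ribosomal proteins and -0.09 over 51 subunits of the respiratory complexes, of which 50 and 42 had the lower mean, beside 58.3% of all tested probe sets, and in pair 2 those medians were -0.20 and -0.19. It was 0.27 over 5 heat shock genes, namely Hsp26, Hsp27, Hsc70-4, DnaJ-1 and Hsf, with Hsp68 below the filter. That median is the value of Hsf, the gene of the heat shock transcription factor and not of a chaperone. The differences ran from -0.13 for DnaJ-1 to 0.69 for Hsp27. Of the 5 genes 4 were higher in all 3 pairs, beside 15.0% of all probe sets. The other, DnaJ-1, was lower in all 3 pairs, beside 25.2% of all probe sets. Of the 5 genes 1, Hsp27, passed with the block (limma, adjusted p = 0.0478), beside 0.631%. Without the block Hsp27 did not pass (limma, adjusted p = 0.999). These medians describe the lists, and no difference between them was tested.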

How the data were processed

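RNA of 6 samples, 3 Enigma RNAi and 3 control RNAi, was labelled with biotin from 8 µg of total RNA each and hybridised to single-channel Affymetrix arrays, per the labels and probe set names. The authors made the deposited values, taken as log2 values, with GCRMA, per the submitters' processing notes; GCRMA corrects background, normalizes and summarises probes. The log2 scale was inferred from the method and the range of -0.32 to 14.30, since no label gives the scale. Control probe sets (44 of 14010) were left out. Gene names came from the platform annotation (12444 probe sets with 1 gene, 327 with several, 1239 unnamed here). All 21 genes matched RefSeq by Entrez number. No coordinates are given, since that annotation names no build.

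Groups were compared in R 4.3.3 with limma 3.58.1 (lmFit, then eBayes), two-sided, at a Benjamini-Hochberg adjusted p under 0.05 over the 6975 tested probe sets. The code was tested on simulated data without a replicate effect, which does not measure the power of either fit here. Across probe sets, each array's deviation from its group mean was set against that of its same-numbered counterpart (r = 0.80, 0.64 and 0.65 for numbers 1, 2 and 3), so the numbers pair the arrays. The pairing comes from these values and the titles, not from a stated batch. Blocked values are given beside results whose call or count they alter. Genes and lists were chosen with earlier results of these data known. All 21 genes are named, with values on each array for those tested, and of the other machinery the 3 largest differences. From that list Sam50 and Mtx were not matched by name, and OXA1L was matched through CG6404. UQCR-C1, rho-7, Hsp22, Mitofilin and park were matched by name but are not among the 22 genes on the array. The number of arrays limits the precision. Alternatives were other blocks, filters, normalizations, array weights, a floor at 4 and leaving out arrays.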

Additional observations from a re-analysis of the deposited data

How the results depend on the processing

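The count of import, chaperone and protease genes past the threshold was 0 under every alternative run. Over all probe sets it was 0 without a block under each filter, normalization and weighting and without any single array, 44 with the replicate block, and 3 with replicate number fitted as a random block. With the block it was 586, 2 and 8 without replicate 1, 2 and 3, fits with 1 residual degree of freedom. Enigma passed with the block and the random block, both at -2.72, and with the block at -2.71, -2.63 and -2.83 without replicate 1, 2 and 3; without single arrays it lay between -3.00 and -2.52. The median of the 15 genes was between -0.05 and -0.02 under quantile normalization, cyclic loess and array weights, and with no filter that of all 21 genes was 0.0092. Of 253 values of single genes under the alternatives, 0 passed and 26 changed sign, 25 of them where arrays were left out. Trap1 was 0.058 with array weights. With all 6 arrays kept, the blocks, filters and floor left the differences of these genes unchanged. Those values are among the 253 and could not change sign. Without single arrays, differences ran from 0.098 to 0.32 for Tom20, -0.21 to 0.11 for Tom40, -0.29 to -0.031 for Tom7, -0.11 to 0.29 for Tom70, -0.11 to 0.12 for Tim8, -0.37 to 0.090 for Tim9a, -0.0049 to 0.48 for Hsc70-5, -0.039 to 0.078 for Roe1, -0.15 to 0.052 for CG11267, -0.14 to 0.0030 for Hsp60A, -0.19 to 0.064 for Trap1, -0.18 to -0.054 for ClpP, -0.46 to -0.15 for ClpX, -0.027 to 0.29 for Lon and -0.57 to -0.15 for Spg7. The order of the largest differences changed too: without control array 3 Tom7 differed by -0.29 and Spg7 by -0.15, and without Enigma array 2 Hsc70-5 differed by 0.48. With the block, signs turned without replicate 1 for Tom40 (0.11), Tim8 (-0.033) and Roe1 (-0.0020), without replicate 2 for Tom70 (-0.095), CG11267 (0.0095) and Trap1 (0.069), and without replicate 3 for Tim8 (-0.010), Hsc70-5 (-0.0080), Roe1 (-0.028) and Hsp60A (0.00062). Averaging a gene's probe sets changed nothing, since each gene has 1, and background correction could not be repeated from summarised values. Signals under 4 limit what can be said of 6 genes and of the size of the Enigma difference, which was -2.31 with the floor at 4.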
